A study of Mus musculus with 13 samples.

Results

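The lipid barrier genes described here are 10 mouse genes whose products make, modify or carry the lipids of the cornified layer of stratified epithelium: Elovl1, Elovl4, Cers3, Pnpla1, Abhd5, Abca12, Alox12b, Aloxe3, Sdr9c7 and Alox12. They were listed by name for their known roles, with earlier results of these data known, and looked up by their Ensembl identifiers. All 10 are among the 55332 genes with values in the deposited table. Their RNA was measured by bulk RNA sequencing in 13 mouse NUT carcinoma (mNC) tumors, each as 1 library. NUT carcinoma is an aggressive squamous carcinoma, and every tumor, controls included, arose in mice that carry the NCT allele, on which Cre recombinase acts. The 4 oral Sox2 WT tumors had the genotype KRT14-Cre; NCT+/-, and the 2 oral Sox2 KO tumors are labelled KRT4Cre; NCT+/-; Sox2fl/fl, although the study names KRT14-Cre as the driver of all oral tumors. The 4 pancreatic Sox2 WT tumors were Pdx1-Cre; NCT+/- and the 3 pancreatic Sox2 KO tumors were Pdx1-Cre; NCT+/-; Sox2fl; fl. KRT14-Cre is active in the basal layer of surface epithelia such as mouth and skin, and Pdx1-Cre in the pancreatic lineage, so that cells without Cre in a tumor keep both alleles unrecombined. The labels give neither the age of the mice nor which tumors came from the same animal, and the p-values therefore measure the spread between these tumors.

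The water barrier of skin rests on acylceramides, ceramides with an unusually long fatty acid that is hydroxylated at its far end and esterified with linoleic acid. ELOVL1 and ELOVL4 lengthen the fatty acid, CERS3 joins it to the sphingoid base, PNPLA1 adds linoleic acid with ABHD5 as its partner, and ABCA12 loads the lipid into lamellar bodies for secretion. ALOX12B, ALOXE3 and SDR9C7 then oxidize the linoleic acid in sequence, which lets the lipid be bound to the protein envelope of the dead cell, and loss of function in most of these genes causes ichthyosis, a disease of scaling skin. ALOX12 is the platelet-type lipoxygenase, which is also present in skin and has no established place in this route.

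Depth differed with genotype in both tissues. The tumors held 29394258 to 40420228 estimated counts in oral WT, 11735315 and 20432164 in oral KO, 40964533 to 46134830 in pancreatic WT and 89562790 to 120482829 in pancreatic KO. Sox2 had 410 to 1487 counts in the WT tumors and 0 to 2 in the KO tumors, as labelled. Oral KO tumor 1 stood apart, with 59.5% of its counts in protein-coding genes against 84.5% to 91.7% in the other 12 tumors. The basal keratinocyte markers, 8 genes led by Krt5, Krt14 and Trp63, summed to at least 4309.8 CPM (counts scaled to a common library size) in every tumor, so that both sites held squamous cells. Skeletal muscle markers, 9 genes, summed to 5577 and 3074 CPM in the oral KO tumors, 555 CPM in oral WT tumor 4 and 5.35 to 7.43 CPM in the other oral WT tumors.

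The members lie at separate places in the genome (GRCm38, GENCODE M21), apart from the lipoxygenases, of which Aloxe3 (chr11:69125896-69149115, + strand) and Alox12b (chr11:69156989-69169792, + strand) are neighbors and Alox12 (chr11:70241457-70255353, - strand) lies farther along the same chromosome. Cers3 is at chr7:66743504-66823691, Pnpla1 at chr17:28858411-28890309, Sdr9c7 at chr10:127898518-127911761, Elovl1 at chr4:118428093-118432953 and Abhd5 at chr9:122351608-122381524, all on the + strand. Elovl4 is at chr9:83778692-83806277 and Abca12 at chr1:71242276-71414910, both on the - strand. All 10 are protein-coding, and at most 2.45% of the 31-base sequences of a member, Pnpla1, occur in another gene. Elovl1, Abhd5 and Pnpla1 overlap a gene on the opposite strand, Cdc20, A730085K08Rik and Pnpla1os, which the stranded counting of the reads tells apart.

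RefSeq promoters (GRCm38.p6) were at hand for 9 of the 10 members, with 2 starts for Elovl1 and none for Aloxe3. In the 250 bases before each start, 5 short motifs were searched on both strands. They were the TATA box TATAAA, the AP-1 motif TGANTCA, the grainyhead-like motif AACCNGTT and ACAAAG and ACAATG, forms of the SOX family motif, and none of these overlaps another in its letters. Of 32851 RefSeq promoters, 12.4%, 6.75%, 1.79%, 16.5% and 10.7% held them, in this order. Of the 10 member promoters, 1 held the TATA box, 0 the AP-1 motif, 0 the grainyhead-like motif, 2 ACAAAG and 1 ACAATG. The promoters with a match are shown first, 5′ to 3′ on the strand of the gene, with the matched letters in capitals (CTTTGT is ACAAAG on the other strand). Those of Alox12b and Alox12, which held none of the 5 motifs, are shown for comparison because these lipoxygenase genes had opposite directions of difference in the pancreatic tumors. Bases that GENCODE places inside the gene were left off.

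Sdr9c7, chr10:127898285-127898517, + strand: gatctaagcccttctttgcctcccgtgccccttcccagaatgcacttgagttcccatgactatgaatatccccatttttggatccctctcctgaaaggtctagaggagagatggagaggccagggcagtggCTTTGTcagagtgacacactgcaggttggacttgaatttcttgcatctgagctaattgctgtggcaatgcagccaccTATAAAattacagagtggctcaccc
Cers3, chr7:66743254-66743503, + strand: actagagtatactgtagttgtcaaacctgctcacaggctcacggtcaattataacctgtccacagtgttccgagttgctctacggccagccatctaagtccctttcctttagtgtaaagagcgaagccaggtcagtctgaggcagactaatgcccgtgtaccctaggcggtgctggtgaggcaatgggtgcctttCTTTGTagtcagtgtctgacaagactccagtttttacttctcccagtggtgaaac
Pnpla1, chr17:28858161-28858410, + strand: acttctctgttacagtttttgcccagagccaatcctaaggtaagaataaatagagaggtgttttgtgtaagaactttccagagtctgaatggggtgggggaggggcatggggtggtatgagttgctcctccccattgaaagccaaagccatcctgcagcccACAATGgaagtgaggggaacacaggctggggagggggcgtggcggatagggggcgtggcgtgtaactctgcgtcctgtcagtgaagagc
Alox12b, chr11:69156822-69156988, + strand: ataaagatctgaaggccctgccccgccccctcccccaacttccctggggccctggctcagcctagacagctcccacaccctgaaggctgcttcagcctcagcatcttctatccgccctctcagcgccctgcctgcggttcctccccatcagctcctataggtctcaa
Alox12, chr11:70255371-70255620, - strand: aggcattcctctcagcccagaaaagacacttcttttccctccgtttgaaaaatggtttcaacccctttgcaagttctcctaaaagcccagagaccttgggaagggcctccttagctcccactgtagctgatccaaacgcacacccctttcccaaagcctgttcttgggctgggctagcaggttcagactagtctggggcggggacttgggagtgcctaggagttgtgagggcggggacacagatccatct

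Counted from the RefSeq start, the first matched base lay at -42 for TATAAA and -119 for ACAAAG in Sdr9c7, at -55 for ACAAAG in Cers3 and at -89 for ACAATG in Pnpla1. The matches are letters only, and binding was not measured in these tumors.

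Between genes, levels were compared as CPM per kilobase of exon. In the pancreatic WT tumors the elongases Elovl4, at 36.9 ± 12.0 CPM per kb (SD, n = 4), and Elovl1, at 36.8 ± 2.47 CPM per kb, were highest and did not differ beyond their spread. Cers3 followed at 22.5 ± 6.30 CPM per kb, Alox12b at 19.2 ± 11.3, Alox12 at 12.5 ± 4.84 and Abhd5 at 12.0 ± 1.36. Sdr9c7 reached 7.14 ± 3.27 CPM per kb, Pnpla1 4.10 ± 0.896, Abca12 3.62 ± 2.06 and Aloxe3 0.714 ± 0.471. Neighbors in this order overlapped within 1 SD except Elovl1 and Cers3, Abhd5 and Sdr9c7, and Abca12 and Aloxe3.

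The order was different in the pancreatic KO tumors. Elovl1, at 30.3 ± 1.40 CPM per kb (SD, n = 3), and Alox12, at 25.3 ± 5.93 CPM per kb, headed it and overlapped within 1 SD. Abhd5 at 9.83 ± 0.477, Elovl4 at 8.94 ± 3.55 and Cers3 at 7.51 ± 2.89 CPM per kb overlapped one another. Pnpla1 at 1.28 ± 0.564, Sdr9c7 at 1.19 ± 0.759, Alox12b at 0.877 ± 0.814 and Abca12 at 0.502 ± 0.220 CPM per kb came next, each overlapping its neighbor, and Aloxe3 at 0.106 ± 0.0764 CPM per kb was lowest. Alox12 was thus the second of the 10 members per length in KO and the fifth in WT tumors. When the longest transcript of each gene was used as its length, 2 of the 10 members kept their place in the pancreatic WT order.

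In the oral WT tumors Elovl4 stood at 42.0 ± 53.6 CPM per kb (SD, n = 4), Elovl1 at 22.1 ± 4.28 and Cers3 at 9.35 ± 8.63. Abhd5 stood at 8.48 ± 1.92 CPM per kb, Alox12b at 6.61 ± 9.95, Alox12 at 5.74 ± 3.45, Sdr9c7 at 5.67 ± 8.26, Abca12 at 4.96 ± 6.54, Pnpla1 at 3.12 ± 3.89 and Aloxe3 at 0.682 ± 0.789. Every pair of neighbors in this order overlapped within 1 SD. In the oral KO tumors (n = 2) Elovl4 at 27.4 ± 6.84 CPM per kb and Alox12b at 21.1 ± 16.0 headed the order, followed by Elovl1 at 15.6 ± 1.46 and Alox12 at 11.6 ± 5.10. Sdr9c7 at 7.81 ± 6.47, Cers3 at 7.76 ± 5.40, Abhd5 at 6.54 ± 2.20, Abca12 at 4.60 ± 2.46, Aloxe3 at 3.87 ± 1.24 and Pnpla1 at 2.25 ± 1.29 CPM per kb ended it.

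**Figure D1:**
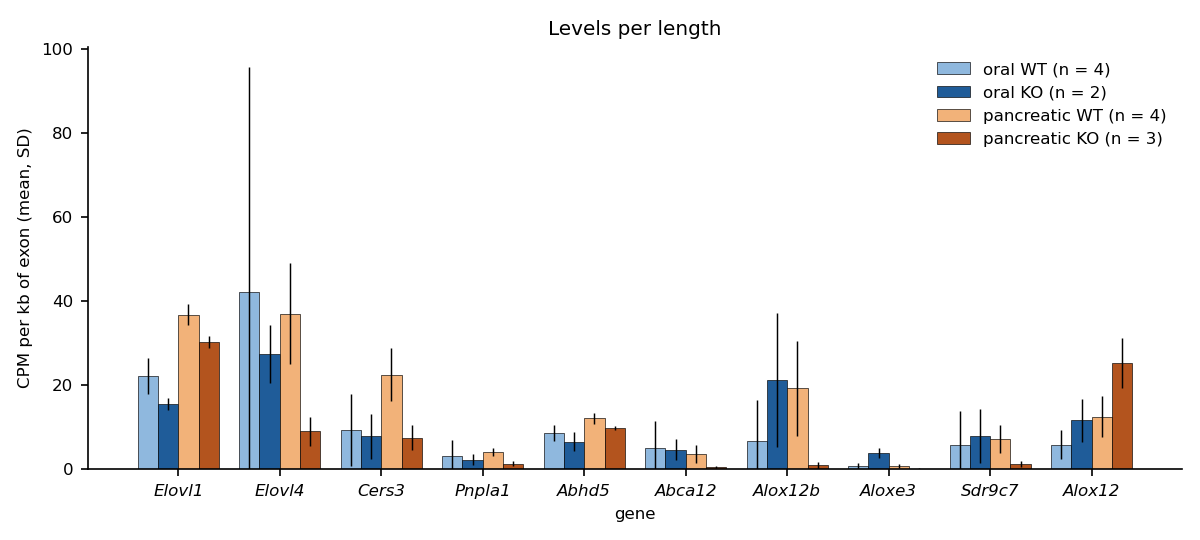
Mean CPM per kilobase of exon of the 10 members in the 4 groups of tumors, with error bars of 1 SD between tumors that end at 0. The elongases head the order in the WT tumors of both tissues, and Alox12 is the only member whose bar is higher in pancreatic KO than in pancreatic WT tumors.

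To ask how Sox2 deletion bears on these genes, the genotypes were set side by side at each site, first in the pancreas. Of the 10 members, 9 were lower in each of the 3 pancreatic KO tumors than in each of the 4 WT tumors, and Alox12 was higher in each. The gap was widest for the linoleate lipoxygenase Alox12b, whose mean was 21.9-fold lower in KO, and narrow for Elovl1 and Abhd5. None of the 10 passed the test across all genes, edgeR's quasi-likelihood test with a Benjamini-Hochberg adjusted p under 0.05 and a log2 fold change beyond 1 in either direction. In bulk tumors, fewer cells of a type and less RNA per cell cannot be told apart.

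The elongase and ceramide synthase genes gave tight groups. Elovl4, which makes the longest fatty acids of the barrier, had 119, 160, 90.6 and 77.4 CPM in the WT and 39.1, 23.7 and 18.4 CPM in the KO tumors. Cers3, the ceramide synthase for these long acyl chains, had 96.0, 81.6, 66.8 and 48.1 CPM in the WT and 35.2, 20.6 and 17.6 CPM in the KO tumors. Neither gene's groups overlapped, and KO tumor 1 was the highest KO tumor for both. The log2 fold change was -2.04 (SE 0.34, adjusted p = 0.0544 by edgeR) for Elovl4, a mean 4.13-fold lower in KO, and -1.57 (SE 0.31, adjusted p = 0.0739 by edgeR) for Cers3, a mean 2.99-fold lower.

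Elovl1, which makes the shorter of the very long saturated chains and is expressed in most tissues, had 103, 107, 97.8 and 92.0 CPM in the WT tumors. Its KO tumors had 86.5, 82.4 and 78.9 CPM, a narrow gap below WT. The log2 fold change was -0.27 (SE 0.096, adjusted p = 0.229 by edgeR), with a 95% interval of -0.49 to -0.047, a far smaller difference than that of Elovl4.

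Pnpla1, the transacylase that places linoleic acid on the ceramide, had 17.9, 24.5, 22.2 and 14.8 CPM in the WT and 9.05, 5.95 and 3.61 CPM in the KO tumors. Abhd5, its partner, which also serves the breakdown of stored fat in many cells, had 64.7, 83.0, 72.2 and 67.0 CPM in the WT and 61.7, 56.3 and 57.6 CPM in the KO tumors. Both were lower in KO without overlap, but by unlike amounts. The log2 fold change of Pnpla1 was -1.67 (SE 0.32, adjusted p = 0.0701 by edgeR), and that of Abhd5 was -0.28 (SE 0.12, adjusted p = 0.285 by edgeR) with a 95% interval of -0.55 to -0.017.

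Abca12, the lamellar body transporter, had 62.1, 93.0, 33.8 and 25.6 CPM in the WT and 11.1, 6.47 and 4.76 CPM in the KO tumors. The WT tumors spread more widely here than for Pnpla1, yet the lowest of them was above each KO tumor. Its log2 fold change was -2.85 (SE 0.54, adjusted p = 0.0714 by edgeR), a mean 7.22-fold lower in KO.

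The oxidation genes were lowest in KO tumor 3. Alox12b, the first enzyme of the oxidation, had 48.9, 83.5, 35.8 and 18.6 CPM in the WT and 2.35, 3.99 and 0.0520 CPM in the KO tumors. Aloxe3, which converts the product of ALOX12B, had 3.57, 9.05, 2.89 and 2.76 CPM in the WT and 0.568, 1.21 and 0.251 CPM in the KO tumors. Sdr9c7, the dehydrogenase that follows, had 20.9, 35.8, 17.3 and 12.8 CPM in the WT and 5.23, 4.68 and 0.988 CPM in the KO tumors. WT tumor 2 was the highest for all 3 genes, and no groups overlapped. The log2 fold changes were -4.45 (SE 1.20, adjusted p = 0.142) for Alox12b, -2.75 (SE 0.67, adjusted p = 0.111) for Aloxe3 and -2.58 (SE 0.62, adjusted p = 0.113) for Sdr9c7, all by edgeR. Without KO tumor 3 the log2 fold change of Alox12b was -3.87 (SE 0.68, adjusted p = 0.0987 by edgeR).

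Alox12 differed from the other 9 in its direction. It had 30.8, 61.3, 38.4 and 73.3 CPM in the WT tumors and 79.3, 128 and 103 CPM in the KO tumors, all above the highest WT tumor. The log2 fold change was 1.03 (SE 0.32, adjusted p = 0.178 by edgeR), a mean 2.03-fold higher in KO. Platelet and megakaryocyte markers, 7 genes of which 4 were tested, with 0 called by edgeR or DESeq2 and 0 at an unadjusted p under 0.05, summed to 127 to 652 CPM in the WT and 121 to 268 CPM in the KO tumors, overlapping. Nearly all of this sum was Ppbp, a platelet chemokine, at 122 to 645 CPM in the WT and 115 to 263 CPM in the KO tumors, with Pf4 and Itga2b at 1.14 to 3.59 CPM. The markers' part in the values of Alox12 was not tested.

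**Figure D2:**
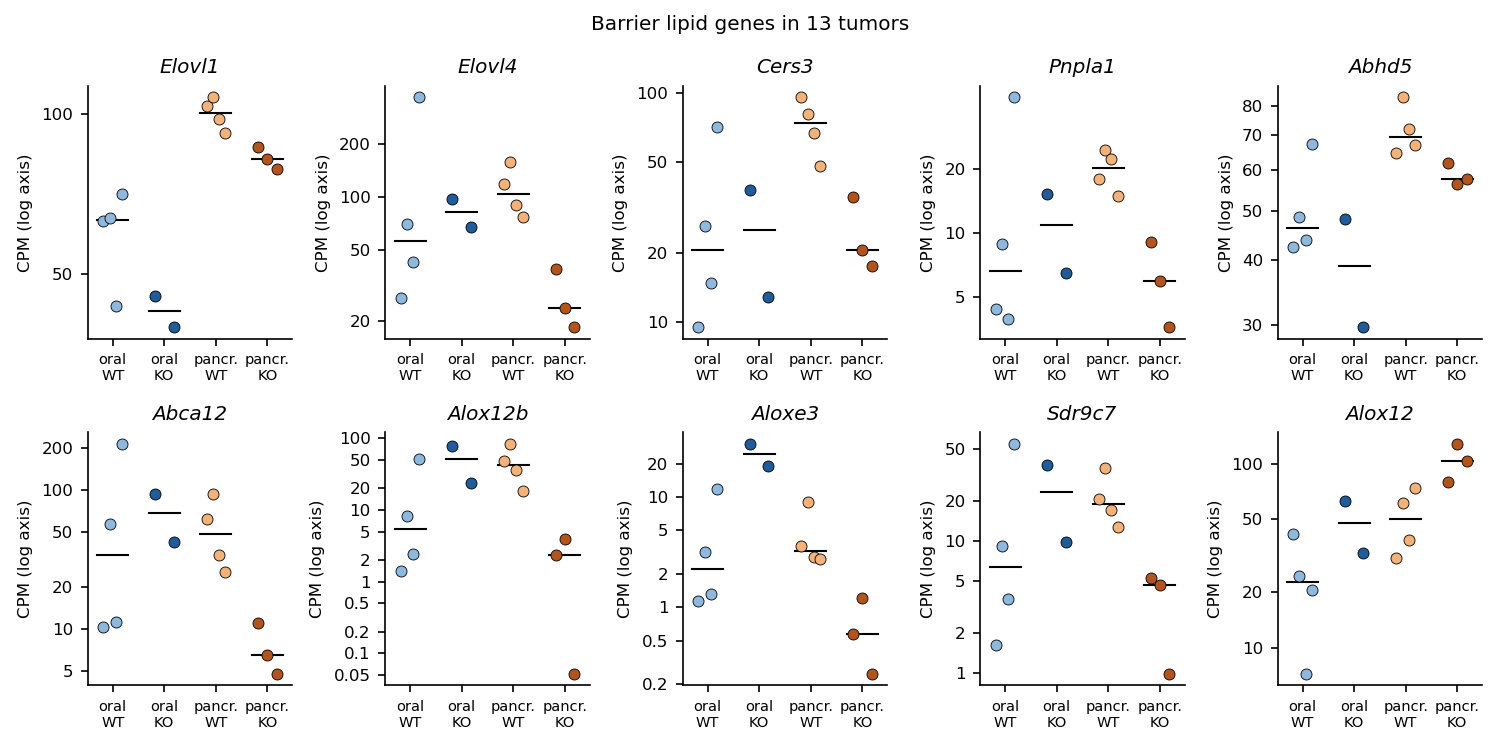
CPM of each member in the 13 tumors on log axes that differ between panels, 1 point per tumor and a line at the median of its group of 2 to 4 tumors. In pancreatic tumors 9 members have every KO point below every WT point and Alox12 has every KO point above, while the oral groups overlap for 9 members and part for Aloxe3.

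Read against all genes, 0 of 10 members were called in pancreatic tumors, where 0.337% of 24653 genes tested were called higher and 0.292% lower. All 10 members had an unadjusted p under 0.05, 9 lower and 1 higher, against 8.77% of all genes lower and 7.11% higher. The groups did not overlap for 10 members, 9 lower and 1 higher, against 8.75% of all genes lower and 6.8% higher. The members were chosen with earlier results of these data known, and they vary together over these tumors. These counts are therefore descriptions beside the shares of all genes and not a test of the members as a set. The members' log2 fold changes had a median of -1.85, and those of all genes tested one of 0.022. DESeq2's Wald test with the same thresholds called 7 members lower, all but Elovl1, Abhd5 and Alox12, and with apeglm shrinkage 6, without Alox12b. The Wald test also called more of all genes than edgeR did, with its totals given below under the dependence on processing. Its 7 members, and its counts for the gene lists below, are therefore not to be set against the edgeR shares. Without pancreatic WT tumor 4, edgeR called 3 members lower, Cers3, Elovl4 and Abca12, and the KO libraries were all deeper than the WT libraries. With all pancreatic libraries thinned to the depth of the smallest, Elovl4 was called (log2 fold change -2.08, adjusted p = 0.0478 by edgeR) and the other 9 members were not. The shares of all genes called without WT tumor 4 and with thinned counts are not given here.

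Markers of suprabasal keratinocytes, the differentiating layers in which barrier lipids are made, moved with the members in these tumors. The 18 markers, among them Krt1, Krt10, Krt4, Krt13, Lor and Tgm1, summed to 3688 to 6619 CPM in the WT and 554 to 1443 CPM in the KO tumors, without overlap. The largest parts of the WT sums were the mucosal keratins Krt4 and Krt13. Krt4 had 1424 to 2947 CPM in WT and 178 to 217 CPM in KO, and Krt13 had 884 to 2425 CPM in WT and 94.9 to 191 CPM in KO. Of the 17 tested, 17 were lower in KO, 10 without overlap between groups, and 2 were called by edgeR (10 by DESeq2's Wald test), Krt4 (log2 fold change -3.46, adjusted p = 0.00256 by edgeR) and Krt13 (-3.69, adjusted p = 0.0163 by edgeR). The call of Krt13 was lost without pancreatic WT tumor 1 or KO tumor 2 or 3, where the adjusted p rose to at most 0.0747. The 8 basal markers summed to 9016 to 16467 CPM in the WT and 13663 to 15284 CPM in the KO tumors, and 0 of 8 parted the groups, were called by edgeR or DESeq2 or had an unadjusted p under 0.05. Each of the 18 suprabasal and 8 basal markers had more than 3 counts in at least 1 tumor. Pancreatic acinar markers summed to 259 CPM in KO tumor 3 and to at most 15.6 CPM in the other tumors. Sebaceous gland markers, another lipid-making lineage of skin, were 7 genes of which 5 were tested and 0 were called by edgeR or DESeq2 or had an unadjusted p under 0.05, and they summed to 181 to 433 CPM in the WT and 440 to 513 CPM in the KO tumors, without overlap. Nearly all of it was the keratin Krt79 (68.3 to 379 CPM in WT and 364 to 475 CPM in KO) and Soat1 (36.0 to 111 CPM in WT and 36.2 to 78.3 CPM in KO), the groups of each of which overlapped, and of the 5 markers tested 2 were higher and 3 lower in KO, with a median log2 fold change of -0.19. Of 6 fibroblast markers 6 were higher in KO, 0 were called by edgeR or DESeq2 and 2 had an unadjusted p under 0.05, and they summed to 1118 to 2198 CPM in the WT and 2100 to 3622 CPM in the KO tumors. The part of these markers in the values of the members was not tested.

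In the oral tumors, the same comparison gave no common direction. Of the 10 members, 4 had a positive and 6 a negative log2 fold change, with a median of -0.096 against -0.0030 for all genes tested, and 0 were called, against 8.81% of 22342 genes called higher and 2.89% lower. Aloxe3 was the only member with an unadjusted p under 0.05 (1 higher and 0 lower, against 19.7% and 15.7% of all genes) and the only one whose groups did not overlap (1 higher, 0 lower, against 22.4% and 25.5% of all genes). A single member of 10 is below each of these shares for the higher direction.

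Aloxe3 had 1.15, 3.17, 1.33 and 11.8 CPM in the oral WT and 30.4 and 19.1 CPM in the oral KO tumors. Its log2 fold change was 2.59 (SE 0.92, adjusted p = 0.101 by edgeR), a mean 5.67-fold higher in KO, whereas its mean was 6.75-fold lower in KO among pancreatic tumors. Alox12b had 1.39, 8.37, 2.44 and 52.0 CPM in the WT and 78.9 and 23.9 CPM in the KO tumors, so that WT tumor 4 lay between the KO tumors, and its log2 fold change was 1.77 (SE 1.35, adjusted p = 0.380 by edgeR). Sdr9c7 had 1.63, 9.11, 3.61 and 54.6 CPM in the WT and 37.6 and 9.83 CPM in the KO tumors. In each of these 3 oxidation genes WT tumor 4 was the highest WT tumor and KO tumor 1 the higher KO tumor.

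WT tumor 4 also led the genes of synthesis and transport. Elovl4 had 26.8, 70.4, 42.7 and 369 CPM in the oral WT and 97.5 and 68.3 CPM in the oral KO tumors. Cers3 had 9.46, 26.3, 14.8 and 71.2 CPM in WT and 37.7 and 12.8 CPM in KO, and Abca12 had 10.3, 57.3, 11.1 and 215 CPM in WT and 93.9 and 42.4 CPM in KO. Pnpla1 had 4.39, 8.86, 3.93 and 43.1 CPM in WT and 15.3 and 6.47 CPM in KO. For all 4 genes tumor 4 was above both KO tumors, while the other 3 WT tumors were below the higher KO tumor. Their log2 fold changes, -0.53 (SE 1.06) for Elovl4, -0.18 (SE 0.86) for Cers3, -0.014 (SE 1.24) for Abca12 and -0.39 (SE 1.07) for Pnpla1, were smaller than their errors.

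The broadly expressed members Elovl1 and Abhd5 varied least between oral tumors. Elovl1 had 62.9, 63.5, 43.5 and 70.8 CPM in the WT and 45.2 and 39.6 CPM in the KO tumors, and Abhd5 had 42.5, 48.5, 43.9 and 67.2 CPM in WT and 48.2 and 29.7 CPM in KO. The groups of both genes overlapped, with log2 fold changes of -0.42 (SE 0.23, adjusted p = 0.226 by edgeR) and -0.29 (SE 0.29, adjusted p = 0.499 by edgeR). Alox12 had 41.4, 24.6, 7.22 and 20.6 CPM in WT and 62.2 and 32.8 CPM in KO, a log2 fold change of 1.11 (SE 0.60, adjusted p = 0.231 by edgeR), and unlike the other lipoxygenases its highest WT tumor was tumor 1. Platelet and megakaryocyte markers summed to 11.3 to 26.3 CPM in the oral WT and 41.3 to 87.6 CPM in the oral KO tumors, 2 of 4 tested parted the groups, both higher in KO, and 1 was called higher by edgeR and 1 by DESeq2. The edgeR call was Ppbp (log2 fold change 2.25, adjusted p = 0.0361 by edgeR), which stayed called in 1 of 6 fits that leave out a tumor, and the part of these markers in the values of Alox12 was not tested.

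The oral result depended on single tumors, WT tumor 4 among them. With 1 of the other tumors left out, the log2 fold change was as low as 0.63 for Alox12b and -1.19 for Cers3. Without WT tumor 4, edgeR called 2 members higher in KO, Alox12b (log2 fold change 3.78, adjusted p = 0.0427) and Aloxe3 (3.82, adjusted p = 0.0157), and the log2 fold changes of Cers3, Elovl4, Abca12 and Pnpla1 turned to 0.69, 0.93, 1.49 and 1.03. The share of all genes called in that fit is not given here, so the 2 members are not set against it. DESeq2's Wald test, DESeq2 with apeglm shrinkage and 1 edgeR fit of all 13 tumors each called 1 member, Aloxe3, higher. Suprabasal markers summed to 1729, 3761, 1358 and 7776 CPM in the oral WT tumors and to 7962 and 2879 CPM in the KO tumors, the same order of tumors within each genotype as for Alox12b but for WT tumors 1 and 3. Of the 18, 8 were higher and 10 lower in KO. Krt4 had 184 to 496 CPM in WT and 1419 and 1008 CPM in KO, and Krt13 202 to 671 and 990 and 938 CPM. Both parted the groups, higher in KO, and Ivl parted them lower, beside 22.4% of all genes higher and 25.5% lower. Calls by edgeR were 1 higher, Krt4, and 0 lower, against 8.81% and 2.89% of all genes. This call was kept in 1 of 6 fits that leave out a tumor. DESeq2's Wald test called 2 higher. Skeletal muscle markers were positive for 9 of 9 genes tested and parted the groups for 8, with 1 called by edgeR (Myh4) and 2 by DESeq2. The call of Myh4 was kept in 2 of the 6 fits that leave out a tumor (adjusted p of at most 0.0912 by edgeR), and the markers' part in these values was not tested.

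**Figure D3:**
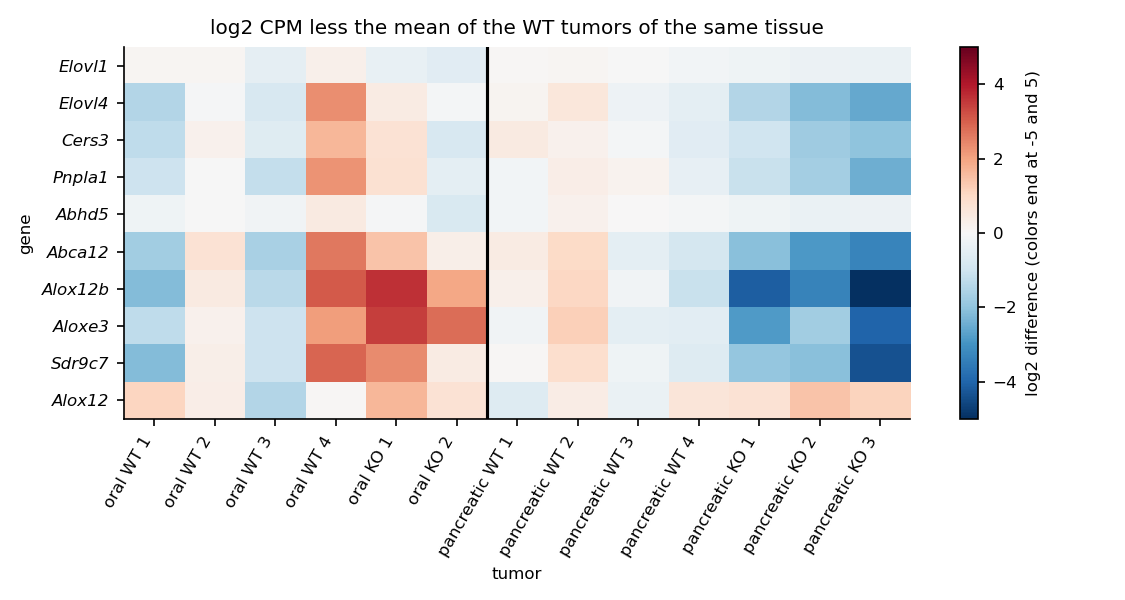
log2 CPM of each member in each tumor less the mean of the WT tumors of its tissue, in color (red higher, blue lower). In pancreatic KO tumors 9 rows are below the WT mean and Alox12 is above it, and oral WT tumor 4 is above the WT mean in all 10 rows, by least in Alox12.

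The difference between the tissues was itself tested as the interaction of tissue and genotype in 1 edgeR fit of all 13 tumors. It was past the thresholds for 1 of 10 members, Aloxe3, with a difference of log2 fold changes (oral less pancreatic) of 5.26 (SE 1.24, adjusted p = 0.0207 by edgeR), where 7.41% of 25836 genes were called higher and 4.85% lower. Alox12b had a larger difference with a larger error, 6.13 (SE 1.93, adjusted p = 0.0521 by edgeR). Sdr9c7 followed with 3.03 (SE 1.52, adjusted p = 0.182 by edgeR) and Abca12 with 2.74 (SE 1.36, adjusted p = 0.179 by edgeR). For Alox12, whose log2 fold change was positive in both tissues, the difference was -0.0045 with a 95% interval of -1.61 to 1.60, which spans differences in either direction. Of the 18 suprabasal markers edgeR called 3 higher and 0 lower in the interaction, Krt4, Krt13 and Lor, beside the same shares of all genes. The calls of Krt4 and Krt13 were kept in 13 of 13 fits that leave out a tumor and that of Lor in 11. The part of these markers in the interaction of the members was not tested.

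DESeq2's Wald test also called 1 member, but Alox12b (adjusted p = 0.0111), and gave no adjusted p for Aloxe3. In edgeR the call of Aloxe3 was lost without oral KO tumor 1 (adjusted p = 0.0535 by edgeR) and without pancreatic KO tumor 3 (adjusted p = 0.0525 by edgeR). Without oral WT tumor 4 the test called 7 members, Aloxe3, Alox12b, Cers3, Elovl4, Abca12, Pnpla1 and Sdr9c7, and without pancreatic WT tumor 4 it called 2, Aloxe3 and Alox12b. The shares of all genes called in these fits are not given here, so the counts of members are not set against them.

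**Figure D4:**
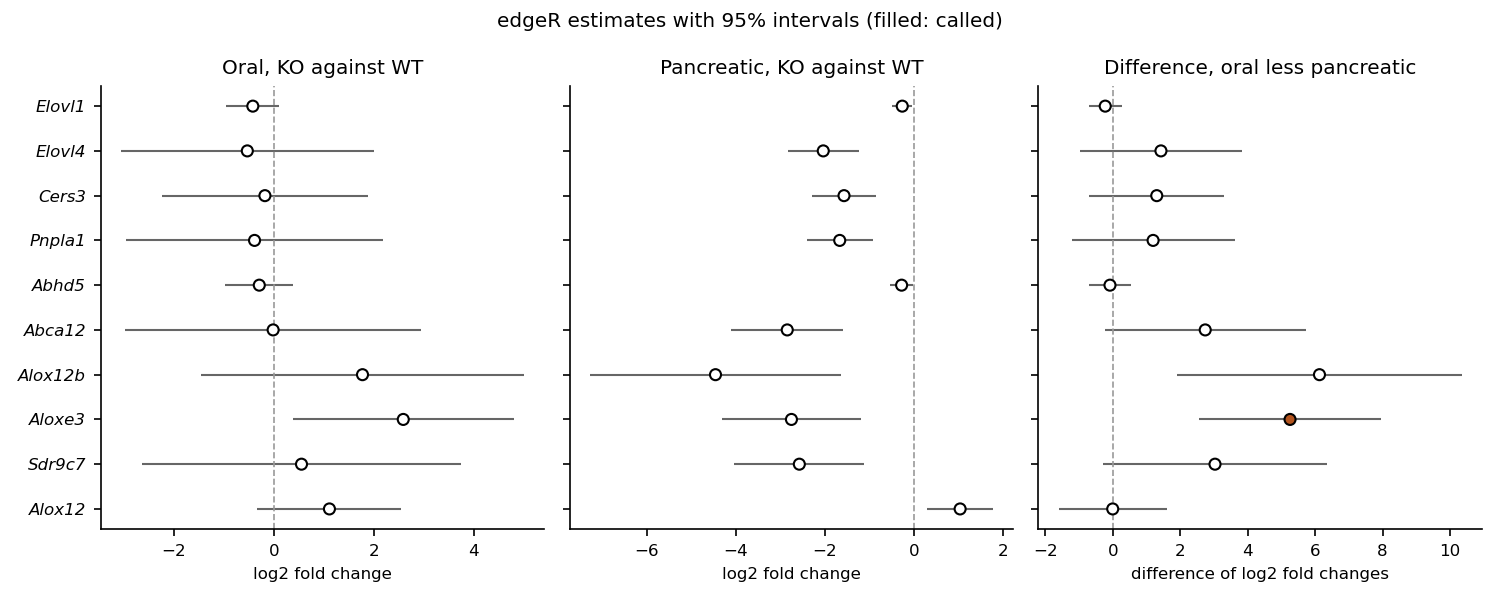
log2 fold change of KO against WT in oral and pancreatic tumors, and the difference between them, with 95% intervals from edgeR (points are estimates, filled where called). The pancreatic intervals of all 10 members exclude 0, 9 on the lower side, while 9 of the 10 oral intervals include 0, and Aloxe3 is the 1 filled point among the differences.

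Between WT tumors of the tissues, which are the same WT tumors as in the KO comparisons, 0 of 10 members were called by edgeR or DESeq2, against 9.3% of 23164 genes called higher in oral tumors and 7.24% lower. At an unadjusted p under 0.05 in edgeR, 0 members were higher and 3 lower in oral tumors, beside 19.1% of all genes tested that were higher and 17.7% that were lower. Elovl1 was the 1 member whose groups parted, lower in oral tumors (0 members higher), against 13.8% of all genes lower and 14.2% higher. Its 4 oral WT tumors, at 43.5 to 70.8 CPM, lay below the 4 pancreatic WT tumors, at 92.0 to 107 CPM, with a log2 fold change of -0.73 (SE 0.16, adjusted p = 0.0103 by edgeR) that is short of the fold threshold. Without oral WT tumor 4, 5 members were called lower in oral tumors, Alox12b (-3.52), Cers3 (-2.12), Elovl4 (-1.26), Pnpla1 (-1.79) and Sdr9c7 (-2.18 on the log2 scale). The share of all genes called in that fit is not given here either.

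Across tumors the members varied together to different degrees. Over the 7 pancreatic tumors, the 21 pairs among Elovl4, Cers3, Pnpla1, Abca12, Alox12b, Aloxe3 and Sdr9c7 had Pearson correlations of log2 CPM of 0.856 to 0.994 (median 0.949), and over the 6 oral tumors of 0.552 to 0.963 (median 0.915). Elovl1 and Abhd5 had correlations of 0.757 to 0.996 with each other and these 7 in the pancreas and of -0.296 to 0.806 in oral tumors. Alox12 had correlations of -0.891 to -0.549 with the other 9 in the pancreas and of -0.133 to 0.526 in oral tumors. These are descriptions over the WT and KO tumors of a tissue together. The differences between genotypes, and the depth that differed with genotype, are therefore part of each correlation.

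With each tumor taken as its difference from the mean of its tissue, the 5 genes outside all lists whose pattern over the 13 tumors was most like the mean of the standardized members were Pla2g4e (r = 0.978), Klk11 (0.967), Klk13 (0.966), Scel (0.965) and Grhl1 (0.962). Klk13, a secreted serine protease of the kallikrein family, had means of 329 CPM in pancreatic WT, 50.5 in pancreatic KO, 126 in oral WT and 111 in oral KO tumors. Scel encodes sciellin, a precursor of the cornified envelope, and Grhl1 a grainyhead-like transcription factor of the epidermis. Among the members, r with this mean ran from 0.980 for Pnpla1, 0.970 for Abca12 and 0.959 for Sdr9c7 to 0.592 for Elovl1 and -0.092 for Alox12, and each member is itself part of the mean. Sox2 had an r of 0.419, and the differences between genotypes are part of this pattern too.

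The other genes of the acylceramide route gave a wider view. They are 19 genes, of which 18 were tested, and most of them supply, hydroxylate, glucosylate or release acylceramide and its parts. The list also holds a protease and a cholesterol sulfotransferase of the epidermis, which do not act on acylceramide. Both of these had lower means in pancreatic KO than in pancreatic WT tumors and are counted below. In pancreatic tumors 17 of 18 were lower in KO and 9 were lower without overlap, with a median log2 fold change of -1.13, and edgeR called 2 and DESeq2's Wald test 8 of them lower. Sptlc3, a subunit of the serine palmitoyltransferase that starts sphingolipid synthesis, had 1.52, 2.09, 2.44 and 1.75 CPM in the WT and 0.245, 0.258 and 0.217 CPM in the KO tumors, a log2 fold change of -3.00 (SE 0.30, adjusted p = 0.00682 by edgeR). Lipm, an epidermal lipase, had 13.6, 16.4, 15.8 and 8.33 CPM in the WT and 2.98, 2.58 and 1.07 CPM in the KO tumors, a log2 fold change of -2.61 (SE 0.41, adjusted p = 0.0396 by edgeR). Sptlc3 stayed called with each tumor left out in turn but not in 1 fit of all 13 tumors (adjusted p = 0.142 by edgeR), and Lipm in 1 of these 7 fits, that without WT tumor 4, with an adjusted p of at most 0.117. Lipm was also lost in the fit of all 13 tumors and with protein-coding genes alone, with an adjusted p of at most 0.203. In oral tumors 7 of the 18 were higher and 11 lower, 0 were called by edgeR or DESeq2, and 0 had an unadjusted p under 0.05.

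The general ceramide and elongation genes, 26 in number, which serve sphingolipids of all cells, were lower in most cases in both tissues. In the oral KO tumors 22 of 25 tested were lower, and the median log2 fold change was -0.70. Groups did not overlap for 17 lower and 0 higher genes, against 25.5% and 22.4% of all genes. Calls by edgeR were 4 lower and 0 higher, against 2.89% and 8.81% of all genes. Psap (log2 fold change -1.36, adjusted p = 0.0220), Tecr (-1.13, adjusted p = 0.0242), Degs1 (-1.07, adjusted p = 0.0245) and Elovl6 (-1.04, adjusted p = 0.0332) fell by edgeR. They encode the precursor of the saposins, which aid the breakdown of sphingolipids, the last reductase of fatty acid elongation, the desaturase that forms ceramide, and an elongase of shorter chains. Of the 6 fits that leave out 1 oral tumor, Psap and Tecr were called in 2 and Degs1 and Elovl6 in 1. All 4 calls were lost with protein-coding genes alone and with tumor number as a block. Degs1 and Elovl6 were also lost with thinned counts, and Elovl6 with apeglm shrinkage and in 1 fit of all 13 tumors. The muscle marker values and the low share of protein-coding counts of oral KO tumor 1 stand beside this list as well. Of 6 fibroblast markers 5 were lower in oral KO, 3 without overlap, and 2 were called lower by edgeR and 2 by DESeq2. The edgeR calls were Dcn, at 812 to 978 CPM in WT and 123 and 37.0 CPM in KO, and Lum, at 234 to 547 CPM in WT and 120 and 58.8 CPM in KO, and they were kept in 4 and 1 of the 6 fits that leave out a tumor. Of 8 myeloid markers 5 were lower, 4 without overlap, with 0 called by edgeR, 3 at an unadjusted p under 0.05 and 2 called by DESeq2. The part of these markers in the values of the list was not tested. In pancreatic tumors 20 of 26 were lower with a median of -0.21, 0 were called by edgeR or DESeq2, and 6 had an unadjusted p under 0.05.

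Cers1 and Cers4, ceramide synthases for other chain lengths than those of CERS3, were higher in oral than pancreatic WT tumors. Cers1 had 2.06 to 2.87 CPM in oral WT and 0.0493 to 0.160 CPM in pancreatic WT tumors (log2 fold change 4.78, adjusted p = 0.000529 by edgeR). The pancreatic WT values rest on 3, 2, 7 and 2 counts, so that the size of this fold is uncertain. Cers4 had 47.4 to 166 and 2.60 to 8.49 CPM (4.32, adjusted p = 0.00135 by edgeR). Of the acylceramide route, 13 of 18 genes tested had a negative and 5 a positive log2 fold change, and edgeR called 4 lower and 0 higher (DESeq2 5 lower and 0 higher), beside the 7.24% and 9.3% of all genes. The fatty acid transporter Slc27a4 (-1.53, adjusted p = 0.00535 by edgeR) and the lipase Lipn (-3.84, adjusted p = 0.00812 by edgeR) stayed called in 8 of 8 fits that leave out a tumor. Cyp4f39, the hydroxylase of the long fatty acid (-2.04, adjusted p = 0.0468 by edgeR), was kept in 1 of these 8 fits and the sphingomyelin synthase Sgms2 (-1.07, adjusted p = 0.0451 by edgeR) in 2. Cell type markers differed between these WT tumors too. All 6 fibroblast markers were called higher in oral tumors by edgeR and by DESeq2, with sums of 8662 to 19001 CPM against 1118 to 2198 CPM. Of 8 basal keratinocyte markers edgeR called 4 and DESeq2 5 lower in oral tumors, with sums of 4747 to 8609 CPM against 9016 to 16467 CPM. Their part in the differences between WT tumors, those of the members included, was not tested.

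The list of 14 other lipoxygenases and paralogs of members, which also holds the gene of a lipoxygenase activating protein, was mixed. In pancreatic tumors 7 of 13 tested were higher and 6 lower in KO, the median log2 fold change was 0.088, and 0 were called by edgeR, 1 by DESeq2's Wald test and 2 had an unadjusted p under 0.05 in edgeR. Among the oral tumors, 3 were higher and 10 lower, and edgeR called 0 and DESeq2's Wald test 4, with 3 at an unadjusted p under 0.05. Between WT tumors Abca3, the surfactant transporter of lung lamellar bodies, was lower in oral tumors (-1.53, adjusted p = 0.00446 by edgeR), as was Pnpla3 (-1.90, adjusted p = 0.00906 by edgeR). In the interaction, Abhd4 (-1.30, adjusted p = 0.0197), Cers1 (-2.77, adjusted p = 0.0173) and Psap (-1.38, adjusted p = 0.0111) were called lower by edgeR, and the calls of Abhd4 and Cers1 were lost without oral KO tumor 1 (adjusted p of at most 0.0584). The value of Cers1 rests on the few pancreatic WT counts given above.

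**Figure D5:**
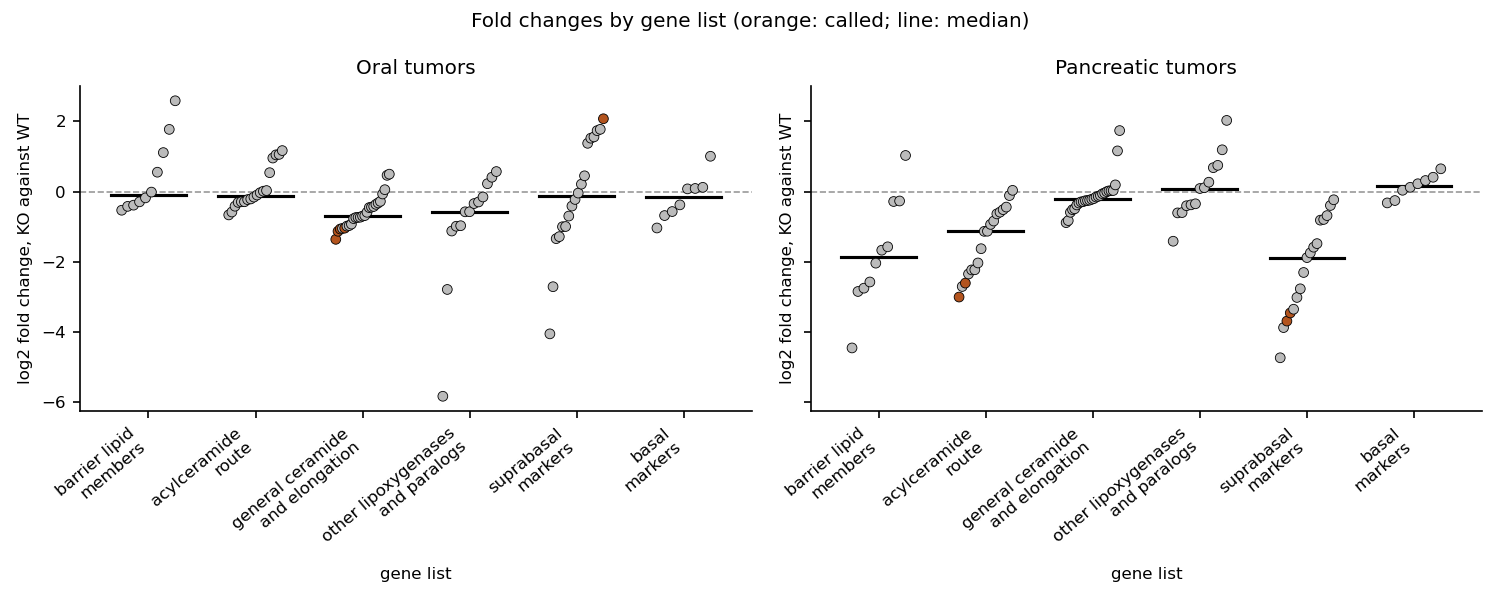
log2 fold change of KO against WT for each tested gene of 6 lists in oral (left) and pancreatic (right) tumors, 1 point per gene (orange where called) and a line at the median. In the pancreas the barrier lipid members, the acylceramide route and the suprabasal markers have medians of -1.85, -1.13 and -1.88, and the basal markers one of 0.17.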

How the data were processed

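Total RNA was depleted of ribosomal RNA and sequenced as stranded libraries. The authors trimmed reads with Trim Galore 0.6.10, checked them with FastQC 0.12.1, quantified them with kallisto 0.50.0 against GENCODE M23 transcripts and collapsed transcripts to genes with tximport. The deposited table holds the resulting estimated counts, not normalized, with 27.29% of entries not whole numbers. Of 56085 rows, 753 hold no values and were left out. Kallisto divides reads shared by similar transcripts, so such values are estimates.

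Symbols and positions came from GENCODE M21 (GRCm38), which holds 55141 of the identifiers. Entries were rounded, and a gene entered a fit with 10 or more counts in 2 or more of its tumors. Tests ran in R 4.3.3 with edgeR 4.0.16 (TMM, robust quasi-likelihood fit, Benjamini-Hochberg adjustment over all genes tested). A call needed an adjusted p under 0.05 and a log2 fold change above 1 in size. KO and WT were compared within tissues, WT tumors between tissues, and tissue by genotype in 1 fit of all 13 tumors. CPM used TMM factors over all tumors. Correlations were taken on log2 CPM (prior count 2). Intervals for CPM were not computed, and depth limits (3 counts, at most 0.256 CPM) cover counting error only. Alternatives were DESeq2 1.42.0 with its size factors, Wald test and apeglm 1.24.0, no filter, protein-coding genes alone, thinned counts, tumor number as a block, 1 joint fit and leaving out each tumor. The fits were tested on simulated data.

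The members and lists were chosen with earlier results of these data known. Named genes were the members, genes of 3 pathway lists that were called (at most the 6 with the smallest p in a comparison), Sox2, the 5 genes most like the members, and Krt4, Krt13, Ivl, Lor, Krt79, Soat1, Myh4, Ppbp, Pf4, Itga2b, Dcn, Lum and Alox12e, which were chosen after their values were seen.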

Additional observations from a re-analysis of the deposited data

Results flagged for a closer look

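In a group of 4 tumors, a tumor was taken as far from the others when its gap to the nearest, divided by the range of the group, exceeded the 95% critical value of Dixon's test. For normally distributed values chance gives this in about 1 of 20 groups. The ratio was taken on CPM, not log2 CPM, and the members vary together, so this rate need not hold here and the count below is not set against it. Of 20 groups tested, 5 exceeded it, 4 of them in oral WT. Tumor 4 was far above the other oral WT tumors for Alox12b (ratio 0.862), Elovl4 (0.873), Pnpla1 (0.874) and Sdr9c7 (0.859). The same tumor held 555 CPM of skeletal muscle markers, against 5.35 to 7.43 CPM in the other oral WT tumors, and 7776 CPM of suprabasal markers, against 1358 to 3761 CPM, and the part of either in its values was not tested. In pancreatic WT, tumor 2 was far above the others for Aloxe3 (ratio 0.872), at 9.05 CPM against 2.76 to 3.57 CPM.

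The log2 fold change of Aloxe3 in KO against WT tumors differed between tissues by the test of the interaction itself, by 5.26 on the log2 scale (oral less pancreatic, adjusted p = 0.0207 by edgeR), with KO above every WT tumor in 2 of 2 oral tumors and below every WT tumor in 3 of 3 pancreatic tumors. It was 1 of 10 members called, where 7.41% of all genes were called higher, and the call was lost without oral KO tumor 1 or pancreatic KO tumor 3 (adjusted p of at most 0.0535 by edgeR). The oral KO tumors also differed from the other groups in muscle markers, in depth and in the Cre named in their label, and the part of these in the difference was not tested.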

How the results depend on the processing

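In the pancreas the count of members called, 0 by edgeR with the filter, was 1 without a count filter, 7 by DESeq2's Wald test, 6 with apeglm shrinkage, 1 with thinned counts and 0 to 3 with 1 tumor left out (3 without WT tumor 4). In oral tumors it was 1 by DESeq2's Wald test, with apeglm shrinkage and in 1 fit of all 13 tumors, and 0 to 2 with 1 tumor left out (2 without WT tumor 4). Between WT tumors it was 0 to 5 with 1 tumor left out, and for the interaction, where it was 1, it was 2 with thinned counts and 0 to 7 with 1 tumor left out. By length of the longest transcript, 2 of 10 members kept their place in the pancreatic WT order. The apeglm fit was not run for the interaction. In the pancreas no member changed direction under any of these settings, although apeglm shrank Alox12b to -0.13.

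Directions turned elsewhere, and the cause was not tested. The log2 fold change of Abca12 in oral tumors was 0.15 with protein-coding genes alone and 0.088 with thinned counts, and that of Aloxe3 between WT tumors 0.019 with thinned counts. The interaction of Alox12 was 0.18 with protein-coding genes alone and 0.20 with thinned counts, and that of Abhd5 0.12 and 0.075. With 1 tumor left out, oral log2 fold changes ran from -1.19 to 0.69 for Cers3, -0.86 to 0.93 for Elovl4, -0.74 to 1.49 for Abca12, -1.17 to 1.03 for Pnpla1, -0.71 to 0.047 for Abhd5 and -0.76 to 2.42 for Sdr9c7. Between WT tumors they ran from -1.28 to 0.51 for Aloxe3, -1.26 to 0.53 for Elovl4, -1.03 to 0.86 for Abca12 and -2.18 to 0.060 for Sdr9c7, and in the interaction from -0.58 to 0.42 for Alox12 and -0.52 to 0.23 for Abhd5.

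Tumors share numbers across groups. The deviations of same-numbered tumors correlated at -0.080 and -0.038 in the oral and 0.317, -0.025 and -0.069 in the pancreatic groups. The 2 oral KO tumors deviate from their mean by equal and opposite amounts, so the oral values can hardly show pairing. Differently numbered tumors in the pancreas correlated at -0.278 to 0.164. The numbers were not taken as pairs, and these values do not settle whether they are. With the tumor number as a replicate block, 6 members were called in the pancreas (5 lower and Alox12 higher). The block turned oral Cers3 to 0.57, Elovl4 to 1.00, Abca12 to 1.46 and Pnpla1 to 0.76, Elovl4 and Abca12 between WT tumors to -0.69 and -0.70, and the interaction of Abhd5 to 0.055.

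Over all genes, calls (higher and lower) in oral tumors were 1968 and 646, but 19 and 8 with protein-coding genes alone, 43 and 22 with the block and 19 and 17 without oral WT tumor 2. In pancreatic tumors they were 83 and 72, but 3 and 7 with protein-coding genes alone, 389 and 726 by DESeq2 and 189 and 401 with the block. Calls over all genes are not given for the other alternatives, so the counts of members called in those are not set against them.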

Other observations

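Alox12e, which encodes an epidermal lipoxygenase and is a paralog of members, was not called by edgeR and was singled out after its values were seen. It had 17.4, 15.0, 2.03 and 29.7 CPM in the oral WT tumors and 0.695 and 0 CPM in the oral KO tumors, from 7 and 0 counts, with a log2 fold change of -5.83 (SE 1.69, adjusted p = 0.0644 by edgeR). In the pancreas it had 0.866, 0.736, 3.51 and 19.8 CPM in the WT and 0.935, 2.10 and 71.9 CPM in the KO tumors, with overlapping groups, and KO tumor 3, the highest of all 13, was the tumor in which Alox12b, Aloxe3 and Sdr9c7 were lowest.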
